A study of Mus musculus with 24 samples.

Results

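Genes of the Hedgehog signalling pathway were examined in poly(A) RNA sequencing of primary mouse neural stem cells. Of 9 genes listed by symbol (Gli1, Gli2, Gli3, Ptch1, Smo, Hhip, Sufu, Boc and Gas1), 8 were among the 14922 genes of the deposited table, and Gli1 was not analysed here. The series compared cells carrying MommeD43, a missense allele of the chromatin protein gene Smchd1, with wild-type cells, on 2 strain backgrounds. The cells were grown as an adherent layer from embryonic cortex in medium with EGF and basic FGF, and all libraries were labelled female.

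The FVB groups were FVB/NJ cells, either Smchd1+/+ or homozygous for the MommeD43 allele that arose by chemical mutagenesis. The B6GFP groups were C57BL/6J cells with GFP fused to Smchd1, either without MommeD43 or homozygous for a MommeD43 change made by genome editing. The labels call the first of these Smchd1+/+ and the study describes the fusion as homozygous, so strain and GFP fusion differed together and cannot be told apart. After 2 of 24 columns had been left out because they equalled the mean of their group mates, 22 libraries from 17 lines remained. FVB wild type had 6 libraries from 5 lines, FVB MommeD43 had 5 from 4, B6GFP wild type had 6 from 4 and B6GFP MommeD43 had 5 from 4. Batch 1 held both strains, batch 2 FVB alone and batch 3 B6GFP alone. Values are log2 CPM, that is log2 reads relative to the total of the library, after the authors' batch correction.

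Hedgehog ligands bind the receptor PTCH1, which otherwise holds the transducer SMO inactive at the primary cilium. Released SMO turns the GLI transcription factors from repressors into activators, with GLI3 acting mostly as a repressor and GLI2 mostly as an activator. In the embryonic forebrain the pathway patterns ventral territory and supports the growth of neural progenitors.

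Depth was known only relative to the deepest library. Batch 2, which held FVB libraries alone, was shallowest at 0.137 to 0.190. Batches 1 and 3 spanned 0.526 to 0.893 and 0.435 to 1. The 8 neural stem cell markers summed to between 12.4 and 12.9 log2 CPM in all 4 groups. The 4 endothelial markers summed to between −0.49 and 2.06 log2 CPM and the 4 meningeal and mesenchymal markers to between −1.21 and 1.42, apart from B6GFP MommeD43 replicate 2 at 3.56 and 1.87. The endothelial gene Kdr averaged 0.32 and was above 1 CPM in 13 of 22 libraries, whereas the defining endothelial gene Cdh5 averaged −3.61 and the mesenchymal gene Dcn −3.69 log2 CPM. Of the 5 microglia markers only P2ry12 was in the table, at 0.35 log2 CPM on average. Quality weights, which set how much a library counts in the fit, ran from 0.101 in B6GFP wild type replicate 4 of batch 3 and 0.158 in B6GFP MommeD43 replicate 2 of batch 3 to 4.90. Smchd1 RNA did not pass the test between MommeD43 and wild type, with log2 changes of 0.05 ± 0.06 (SE) in FVB and −0.0087 ± 0.078 in B6GFP. That is no check of the genotypes, since a missense change need not alter RNA level.

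Levels were compared between genes per kilobase of exon, on the log2 CPM per kb scale and as means over lines. In FVB wild type Smo had the highest level of the members at 4.93, followed by Gas1 at 4.35 and Ptch1 at 2.28. Gli3 at 1.38, Sufu at 1.20, Boc at 1.10 and Gli2 at 0.99 followed, and neighbours in this order lay closer together than the SD of 0.32 over the Gli3 lines. Hhip was lowest at 0.11. In B6GFP wild type Gas1 at 4.70 and Smo at 4.62 headed the order, closer together than the SD of 0.79 over the Gas1 lines, while Gli2 at −0.22 and Hhip at −0.30 ended it. All 8 members were above 1 CPM in all 22 libraries. Of the ligands Dhh was at 3.26 log2 CPM per kb and Shh at −1.81 in FVB wild type, and Ihh was not analysed here.

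The first question was whether MommeD43 altered the pathway. None of the 8 members passed the test in either strain (limma, Benjamini-Hochberg adjusted p under 0.05), against 0.0737% of all genes in FVB and 0% in B6GFP. All genes passing in FVB were 11, or 981 without FVB MommeD43 replicate 2 and from 3 to 22 without any other line. In B6GFP they were 0, or 107 without B6GFP MommeD43 replicate 1, 139 without its replicate 3 and from 0 to 2 without any other line. No member was among them in any of these fits. The changes of the members ran from −0.03 to 0.12 on the log2 scale in FVB and from −0.07 to 0.12 in B6GFP. The smallest adjusted p values were 0.922 and 1, and no member had an unadjusted p under 0.05 in these comparisons. An unadjusted p under 0.05 was reached by 1024 genes (6.86%) in FVB and 319 (2.14%) in B6GFP. For all 8 members the MommeD43 and wild-type libraries of a strain overlapped, whereas 0.456% of all genes in FVB and 0.208% in B6GFP did not overlap. The median change of the members was 0.02 in FVB and −0.03 in B6GFP, beside 0.01 for all genes in both strains.

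Ptch1 encodes the ligand receptor and is itself a transcriptional target of the pathway. In FVB wild type its libraries ran from 5.82 to 6.44 log2 CPM with a median of 6.06, and the 5 MommeD43 libraries were at 5.70, 5.78, 6.00, 6.09 and 6.47. In B6GFP wild type they ran from 5.94 to 6.28 with a median of 6.00, and the MommeD43 libraries were at 5.83, 5.88, 5.90, 6.22 and 6.39. The groups overlapped almost fully, and the 95% intervals of the MommeD43 change were −0.21 to 0.14 in FVB and −0.25 to 0.21 in B6GFP.

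Hhip encodes a ligand-binding antagonist that is also induced by the pathway. It ran from 2.86 to 3.91 log2 CPM with a median of 3.10 in FVB wild type, and was at 2.87, 2.94, 3.10, 3.51 and 3.76 in the MommeD43 libraries. In B6GFP wild type it ran from 2.19 to 4.18 with a median of 2.82, and in MommeD43 it was at 2.16, 2.39, 2.85, 2.94 and 4.46. Hhip was the member with the widest interval, −0.35 to 0.58 in FVB and −0.66 to 0.55 in B6GFP, so changes within those bounds remain possible. The 2 libraries of B6GFP wild type replicate 2 were at 2.53 in batch 1 and 4.18 in batch 3, so repeats of a line could lie as far apart as lines.

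Boc and Gas1 encode co-receptors that present ligand to PTCH1. The MommeD43 values of Boc were 0.12 ± 0.11 (SE) in FVB and −0.06 ± 0.14 in B6GFP, and those of Gas1 0.07 ± 0.11 and 0.02 ± 0.15, none past the threshold. The B6GFP values depended on the quality weights, and with 1 unweighted mean per line they were 0.51 for Gas1, 0.36 for Gli2 and 0.29 for Boc, above their 95% intervals of −0.28 to 0.33, −0.41 to 0.26 and −0.35 to 0.23 (limma adjusted p = 0.788 each). Smo was estimated most tightly, with intervals of −0.12 to 0.10 in FVB and −0.16 to 0.13 in B6GFP. Sufu, which encodes the cytoplasmic inhibitor of GLI proteins, had intervals of −0.11 to 0.11 and −0.18 to 0.11.

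Neither GLI gene passed. For Gli2 the FVB value was 0.03 ± 0.13 and the B6GFP value −0.07 ± 0.16, for Gli3 they were −0.0066 ± 0.11 and 0.12 ± 0.14, with adjusted p of 0.998 or above in each. The highest Gli3 value of the series, 5.82 log2 CPM, was in B6GFP MommeD43 replicate 2, one of the libraries of low weight. That line also had the highest level of Boc (3.95 log2 CPM) and Cdon (7.70), and of 17 lines the highest summed neuron (10.4), endothelial (3.56), mesenchymal (1.87) and dorsal telencephalon (7.37) markers. Their part in its Gli3 level was not tested. Without that line the Gli3 change in B6GFP was 0.084 (limma adjusted p = 1). The MommeD43 effect did not pass a test of difference between strains for any member (0% of all genes passed, and 459 or 3.08% had an unadjusted p under 0.05), and these differences ran from −0.18 to 0.13.

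**Figure D1:**
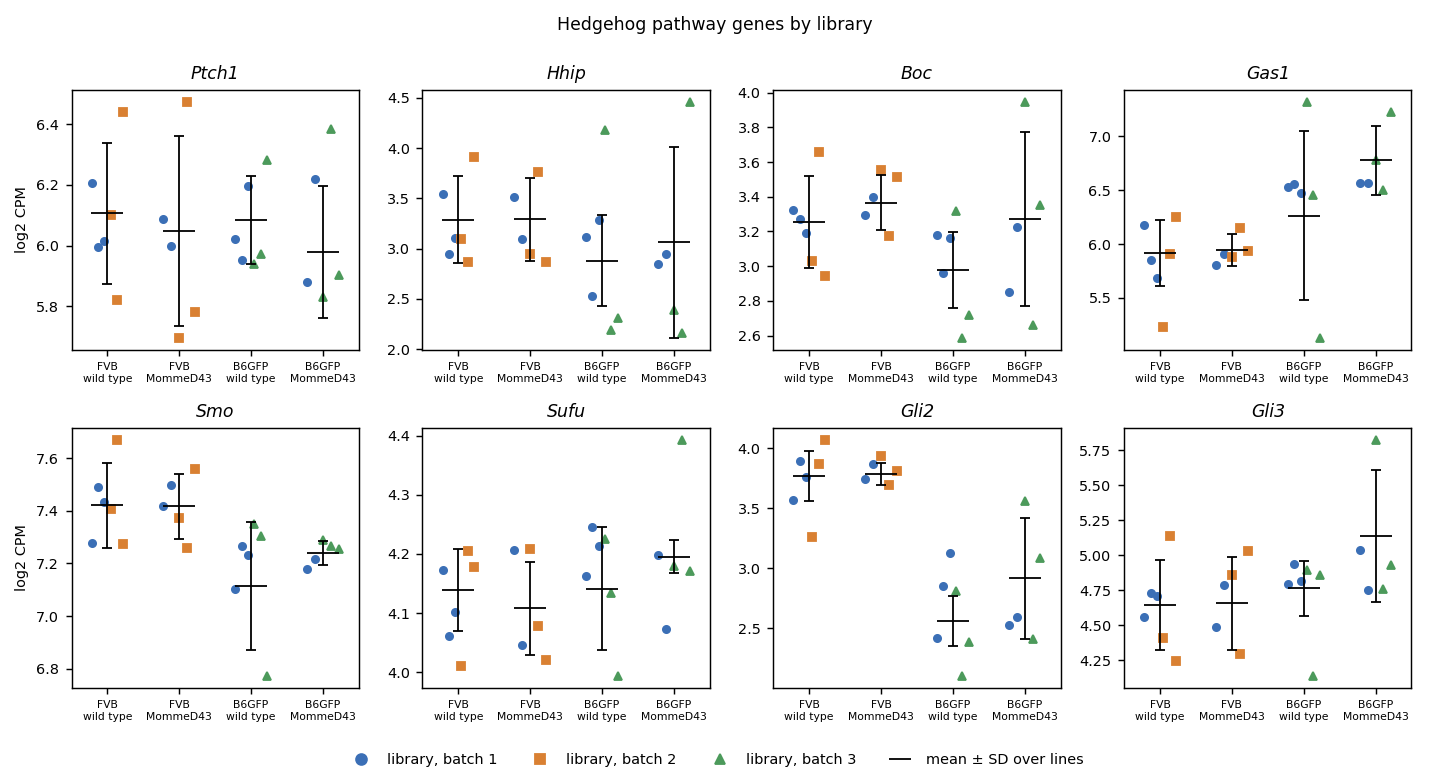
Log2 CPM of the 8 members (vertical axes, one panel per gene, each with its own range) in the 22 libraries of the 4 groups. Symbols mark the batch and bars the mean ± SD over lines. Gli2 is lower in every B6GFP library than in every FVB library of the same genotype, while MommeD43 and wild-type libraries of a strain overlap for all members. Of all genes, 10.3% in wild type and 16.7% in MommeD43 have no overlap between the strains.

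The wider pathway gave the same count. Of 71 further genes for ligand release, receptors and SMO partners, GLI processing, ciliary transport and known target genes, none passed in either strain. None passed for the strain difference. Of all genes 0.0737% passed in FVB, and 0% in B6GFP and for that difference, so the count was near the background. Ligand levels did not pass either. For Dhh the FVB change was 0.22 ± 0.20 and the B6GFP change 0.18 ± 0.26, and for Shh they were 0.31 ± 0.49 and −0.30 ± 0.64. The co-receptor gene Cdon was at −0.18 ± 0.12 and 0.13 ± 0.16.

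The second comparison was between the strains. Members that differed were Gli2 and Smo, lower in B6GFP, and Gas1, higher in B6GFP, both in wild-type and in MommeD43 cells. This was 3 of 8 members against 41.1% of all genes in wild type and 3 of 8 against 34.4% in MommeD43, shares near the background. By direction, 17.9% of all genes were higher and 23.2% lower in B6GFP wild type, and 14.7% higher and 19.6% lower in B6GFP MommeD43. The median member change was −0.08 in wild type and −0.14 in MommeD43, beside −0.02 and −0.03 for all genes. Because batches 2 and 3 each held 1 strain, the fit took the strain difference from batch 1, and the deposited correction had left no difference between batches within the groups. Levels in batches 2 and 3 therefore carry no separate evidence of a strain difference.

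Gli2 ran from 3.26 to 4.07 log2 CPM with a median of 3.82 in FVB wild type and from 2.11 to 3.13 with a median of 2.62 in B6GFP wild type. In MommeD43 it was at 3.69, 3.74, 3.81, 3.87 and 3.94 in FVB and at 2.41, 2.53, 2.60, 3.08 and 3.56 in B6GFP. The libraries of the 2 strains did not overlap in either genotype, as for 10.3% of all genes in wild type and 16.7% in MommeD43. The log2 change was −1.09 ± 0.14 (SE) in wild type, a level 0.468 of that in FVB (limma adjusted p = 3.57e-06), and −1.20 ± 0.17 in MommeD43 (adjusted p = 1.25e-05). In batch 1 alone it was −1.08 (adjusted p = 0.00175) and −1.24 (adjusted p = 0.00426). With no quality weights the MommeD43 difference was −0.90 and missed the threshold (adjusted p = 0.0741).

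Gas1 ran from 5.23 to 6.25 log2 CPM with a median of 5.88 in FVB wild type and from 5.13 to 7.32 with a median of 6.50 in B6GFP wild type. In MommeD43 it was at 5.81, 5.88, 5.91, 5.93 and 6.15 in FVB and at 6.50, 6.56, 6.57, 6.78 and 7.23 in B6GFP. The wild-type groups overlapped through 1 library, B6GFP wild type replicate 4 at 5.13, which had the lowest weight. The MommeD43 groups did not overlap, as for 16.7% of all genes. The log2 change was 0.71 ± 0.13 in wild type (limma adjusted p = 1.51e-04) and 0.66 ± 0.15 in MommeD43 (adjusted p = 0.00182). The call was lost with no quality weights (0.43, adjusted p = 0.485, and 0.75, adjusted p = 0.248) and with 1 mean per line (0.35, adjusted p = 0.439, and 0.83, adjusted p = 0.0612).

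Smo ran from 7.27 to 7.67 log2 CPM with a median of 7.42 in FVB wild type and from 6.77 to 7.35 with a median of 7.25 in B6GFP wild type. In MommeD43 it was at 7.26, 7.37, 7.42, 7.50 and 7.56 in FVB and at 7.18, 7.22, 7.25, 7.26 and 7.29 in B6GFP. The groups overlapped at their edges in both genotypes. The log2 change was −0.27 ± 0.06 in wild type (limma adjusted p = 0.00101) and −0.27 ± 0.07 in MommeD43 (adjusted p = 0.00438), a level 0.830 of that in FVB. This call too was lost with no quality weights (adjusted p = 0.124 and 0.430) and with 1 mean per line (adjusted p = 0.0564 and 0.307).

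The other 5 members did not pass. Ptch1 differed by −0.01 ± 0.10 in wild type and −0.00097 ± 0.11 in MommeD43, with an interval of −0.22 to 0.19 in wild type. Hhip differed by −0.15 ± 0.25 and −0.32 ± 0.30, Sufu by 0.11 ± 0.06 and 0.07 ± 0.07, and Gli3 by 0.14 ± 0.12 and 0.27 ± 0.15. Boc differed by −0.17 ± 0.12 in wild type and by −0.35 ± 0.14 in MommeD43, where its adjusted p was 0.0625. That value was −0.50 (adjusted p = 3.39e-04) without B6GFP MommeD43 replicate 3 and −0.14 (adjusted p = 0.377) without its replicate 1, and it passed in 4 of 17 fits without 1 line.

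**Figure D2:**
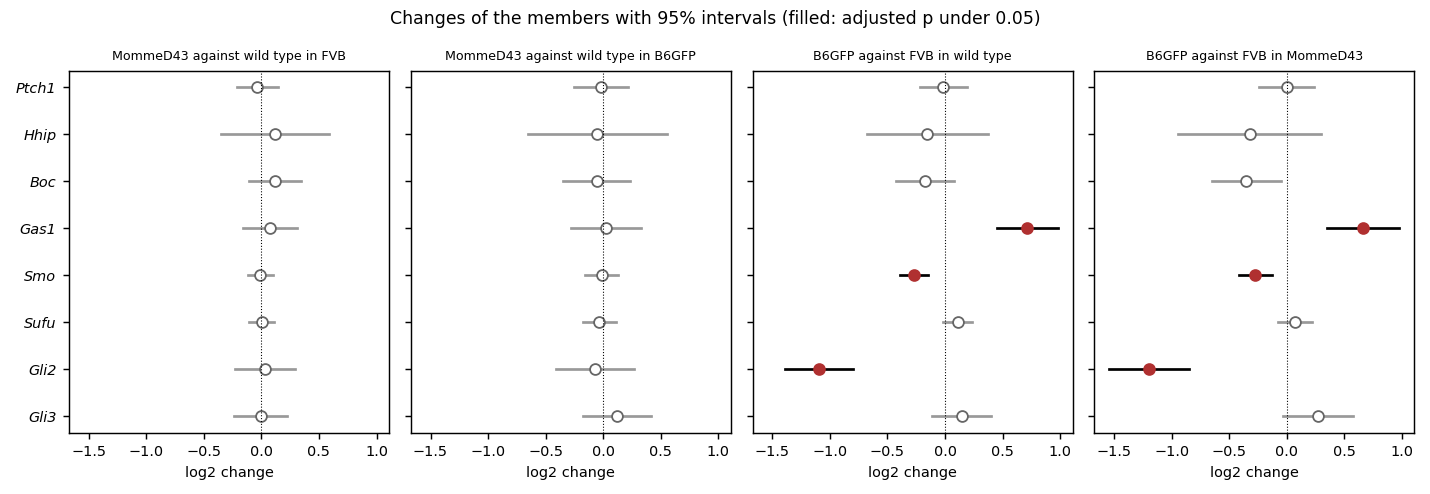
Log2 change of each member (horizontal axis) in the 4 comparisons, with 95% intervals from the fit. Filled points passed an adjusted p of 0.05. All points of the MommeD43 panels are open, and Gas1, Smo and Gli2 are filled in both strain panels.

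Other pathway genes differed between the strains at about the rate of all genes, 28 of 71 (39.4%) in wild type, 10 higher and 18 lower in B6GFP, and 21 of 71 (29.6%) in MommeD43, 8 higher and 13 lower. Among ligands and their release, Dhh was lower by −0.75 ± 0.23 in wild type (limma adjusted p = 0.0130) and by −0.79 ± 0.27 in MommeD43 (adjusted p = 0.0290). Dhh libraries ran from 5.03 to 6.32 log2 CPM in FVB wild type and from 3.71 to 5.29 in B6GFP wild type, overlapping slightly, and its call was lost in batch 1 alone (adjusted p = 0.166 and 0.0797). Of the glypicans, which bind ligand at the cell surface, Gpc6 was higher by 0.32 and Gpc4 lower by −0.49 in wild type. In MommeD43 Gpc4 was lower by −0.45, and Disp2, from the list for ligands and their release, by −0.69. Over 17 fits without 1 line each, Gpc4 passed in 15 in wild type and in 8 in MommeD43, where it was −0.25 without FVB MommeD43 replicate 2. Disp2 passed in 13 and was −0.19 (limma adjusted p = 0.473) without B6GFP MommeD43 replicate 1 and −0.39 without B6GFP wild type replicate 2. Dhh passed in 16 in each genotype, and missed without FVB wild type replicate 2 and without FVB MommeD43 replicate 1.

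Cdon was higher in B6GFP, as was Gas1, by 0.47 ± 0.14 in wild type (limma adjusted p = 0.00904) and by 0.79 ± 0.16 in MommeD43 (adjusted p = 7.76e-04). The wild-type call was lost without B6GFP wild type replicate 2 (adjusted p = 0.0559), and the MommeD43 value was 0.52 without FVB MommeD43 replicate 2. Among genes for SMO partners Efcab7 was lower by −1.42 and −1.35, and Evc by −0.30 and −0.41, in wild type and MommeD43. The endocytic receptor gene Lrp2 was lower by −1.63 in wild type. Of genes for GLI processing, the small GTPase gene Rab23, a negative regulator of the pathway, was lower by −0.32 and −0.40. The protein kinase A subunit gene Prkacb was higher by 0.44 and 0.39 (0.14, limma adjusted p = 0.133, in MommeD43 without B6GFP MommeD43 replicate 1, and 0.25 without B6GFP wild type replicate 2), Prkar2b was lower by −0.59 in wild type, and the ubiquitin ligase gene Cul1 was higher by 0.22 in MommeD43.

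Ciliary genes that passed were lower in B6GFP, 5 of 17 in wild type and 2 of 17 in MommeD43, beside 23.2% and 19.6% of all genes. Tulp3, which brings receptors into the cilium, was lower by −0.39 and −0.26, Inpp5e, a ciliary lipid phosphatase gene, by −0.31 and −0.33, and Ift80, an intraflagellar transport gene, by −0.27 in wild type. Without B6GFP MommeD43 replicate 1 the MommeD43 values were −0.063 for Tulp3 (limma adjusted p = 0.535) and −0.15 for Inpp5e (adjusted p = 0.0808), and without B6GFP wild type replicate 2 they were −0.15 and −0.23, also not passing. Over 17 fits without 1 line, Tulp3 and Inpp5e passed in 10 and 15 in MommeD43, and Ift80 in 14 in wild type, where it was −0.17 without B6GFP wild type replicate 1. Genes known to rise with Hedgehog signalling passed in both directions. In wild type 4 of 12 were higher and 3 lower, beside 17.9% and 23.2% of all genes. In MommeD43 4 were higher and 2 lower, beside 14.7% and 19.6% of all genes. The cyclin gene Ccnd1 was higher by 0.66 and 0.64, whereas the survival gene Bcl2 was lower by −0.59 and −0.59 and the Wnt inhibitor gene Sfrp1 by −1.16 and −1.15.

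Marker lists were also compared between the strains. All 5 astrocyte markers were lower in B6GFP, with a median log2 change of −1.70 in wild type and −2.14 in MommeD43. Of these Gfap, Aqp4 and S100b were low, averaging −0.46, −0.68 and −0.14 log2 CPM over all libraries. The better expressed Aldoc and Gja1 averaged 8.14 and 6.92 over lines in FVB wild type and 7.43 and 6.38 in B6GFP wild type. The summed level of the list was 8.45 to 8.95 log2 CPM in FVB wild type and 7.88 to 8.16 in B6GFP wild type. Of 8 neural stem cell markers 2 were higher and 5 lower in wild type, beside 17.9% and 23.2% of all genes. Of 6 oligodendrocyte lineage markers 1 was higher and 2 lower in wild type, beside those same shares of all genes. Their summed level had a median of 10.2 log2 CPM in B6GFP wild type and 10.0 in FVB wild type. The largest change of that list was in the myelin gene Mbp. It was lower by −4.49 in wild type, from a level averaging −0.96 log2 CPM over all libraries. The part of these differences in those of Gli2, Smo and Gas1 was not tested, and in bulk RNA fewer cells of a type and less RNA per cell cannot be told apart.

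**Figure D3:**
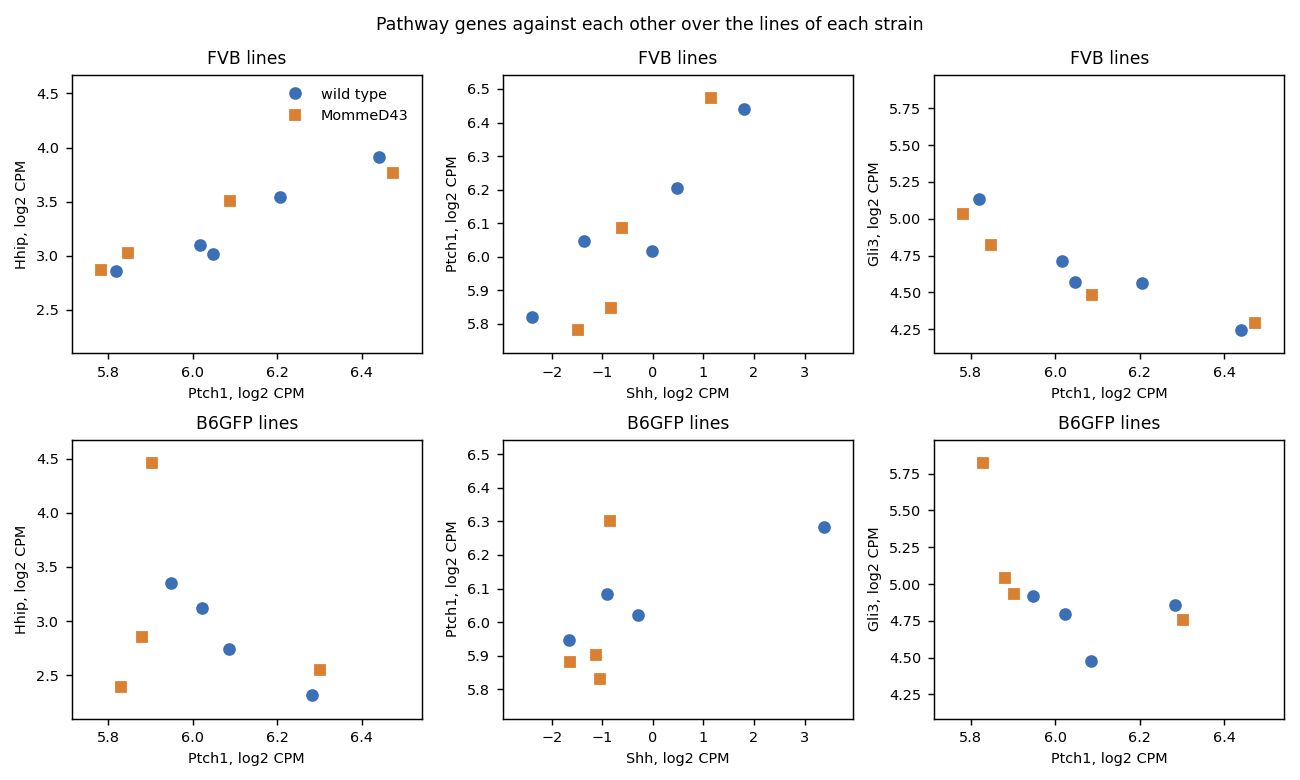
Line means of Ptch1 against Hhip, Shh against Ptch1 and Ptch1 against Gli3 (all axes in log2 CPM), with the 9 FVB lines above and the 8 B6GFP lines below on the same axes. In FVB, Hhip rises and Gli3 falls as Ptch1 rises, and wild-type and MommeD43 lines are mixed along the range. In B6GFP the relation of Ptch1 and Hhip is not seen.

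Expression was next compared over the lines of each strain, wild type and MommeD43 together. Over the 9 FVB lines Ptch1 and Hhip, the members known to be induced by the pathway, had Pearson r = 0.945 (exact permutation p = 8.82e-05, adjusted 7.05e-04) and Spearman rho = 0.917 (exact permutation p = 0.00131, adjusted 0.00350). Without the 2 lines farthest from the median, FVB MommeD43 replicate 4 and wild type replicate 5, r was 0.875 (exact permutation p = 0.00317, n = 7). Two-sided p-values were adjusted over the 8 relations computed. The pair Ptch1 and Hhip was planned, and the other pairs were chosen after their values were seen, so their r and rho are a description with no test.

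Ptch1 also followed Shh, the ligand gene. Shh was at 1.80 log2 CPM in FVB wild type line 5, 1.15 in MommeD43 line 4 and 0.47 in wild type line 1, and from −2.39 to −0.01 in the other 6, so below 1 CPM. Ptch1 in those first 3 lines was at 6.44, 6.47 and 6.21 log2 CPM. Shh and Ptch1 had r = 0.901 and rho = 0.883, and r was 0.860 without the 2 farthest lines. Shh and Hhip had r = 0.910 and rho = 0.983, and r was 0.849 without the 2 farthest lines.

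Gli3 was lower in the lines with more Ptch1. Ptch1 and Gli3 had r = −0.934 and rho = −0.950 over the FVB lines, and r was −0.891 without the 2 farthest lines. Gli3 was at 4.24 and 4.29 log2 CPM in the 2 lines with the most Ptch1 and at 5.14 and 5.03 in the 2 with the least. Batch 2, examined after seeing the data as the one FVB batch with 6 lines, gave r = 0.952 for Ptch1 and Hhip (exact permutation p = 0.0167) and rho = 0.714 (exact permutation p = 0.136). The pairs described without a test had r there of 0.883 for Shh and Ptch1, 0.972 for Shh and Hhip and −0.906 for Ptch1 and Gli3, and rho of 0.543, 0.943 and −0.714. Batch 1 held 5 lines of each strain, too few for a value.

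Over the 8 B6GFP lines Ptch1 and Hhip had r = −0.434 (exact permutation p = 0.289, adjusted 0.289) and rho = −0.310 (exact permutation p = 0.462, adjusted 0.462), and r was −0.021 without the 2 farthest lines. In batch 3, with 6 B6GFP lines, they had r = −0.487 and rho = −0.771 (exact permutation p = 0.275 and 0.103). As a description, r was 0.641 for Shh and Ptch1, −0.401 for Shh and Hhip and −0.577 for Ptch1 and Gli3, with rho of 0.667, −0.595 and −0.881. Without the 2 farthest lines r was 0.561, −0.229 and −0.865, and in batch 3 it was 0.438, −0.211 and −0.338. Of the B6GFP line means, Shh exceeded 1 CPM only in wild type replicate 4, at 3.38 log2 CPM. Without that line the r of Shh and Ptch1 was 0.439. Repeats of B6GFP wild type replicate 3 had Shh at 0.46 and −2.27 log2 CPM in batches 1 and 3. Whether the relations differ between the strains was not tested.

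Marker lists and depth were set against Ptch1 in the same way, 20 relations over both strains added after seeing the data. In FVB the single microglia marker in the table, P2ry12, had r = 0.888 with Ptch1 (exact permutation p = 6.15e-04, adjusted 0.0123) and rho = 0.933 (exact permutation p = 7.50e-04, adjusted 0.0150) at levels near 1 CPM, and r was 0.791 without the 2 farthest lines. Oligodendrocyte lineage markers had r = 0.819 (exact permutation p = 0.00898, adjusted 0.0800) and rho = 0.817 (exact permutation p = 0.0108, adjusted 0.0922), with r = 0.803 without those lines. Dorsal telencephalon markers had r = 0.762 and rho = 0.800 (exact permutation p = 0.0182 and 0.0138, adjusted 0.0908 and 0.0922), with r = 0.649 without them. Relative depth had r = −0.129 and rho = 0.100 (exact permutation p = 0.735 and 0.810), and r was 0.680 without those lines (exact permutation p = 0.102). Of the 10 B6GFP relations none passed 0.05 after adjustment. The part of these lists and of depth in the relation of Ptch1 with Hhip and Gli3 was not tested.

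The genes whose line-to-line pattern was most like that of Ptch1 were Galnt10, Serinc5, Jam3, Ank and Tspan15, with r of 0.928, 0.925, 0.924, 0.924 and 0.916 over 17 lines, each taken minus its group mean, among 9981 genes of at least 3 log2 CPM on average. For Gli2 they were Mtx3 (0.90), Celsr1 (0.890), Gpatch4 (0.854), Foxp1 (0.840) and Arhgef25 (0.829). For Gas1 they were Ppp1r8 (0.952), Rnaseh2a (0.936), Rps23 (0.932), Pfdn5 (0.929) and Cntrob (0.928). These 3 members were taken in place of Gli1 after values were seen, and the r values are descriptive, the highest of many genes. All lines counted equally in them, including B6GFP wild type replicate 4, which had the lowest quality weight (0.101). Gas1 in that line was at 5.13 log2 CPM, beside a mean of 6.26 over the lines of its group.

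The RefSeq promoter table (GRCm38.p6, the C57BL/6J reference) held windows for 7 of the 8 members. The GLI motif GACCACCCA, searched on both strands over the 250 bases before the start, was in none of them and in 0.225% of 32851 windows. No match says only that these letters are absent there. The windows of Smo and Gas1 are shown because both passed the strain comparison and lie wholly before the annotated gene, at chr6:29735247-29735496 (plus strand) and chr13:60177536-60177785 (minus strand), with 68.4% and 58.8% G or C beside a median of 52.4% over all windows. The FVB sequence was not analysed here.
Smo: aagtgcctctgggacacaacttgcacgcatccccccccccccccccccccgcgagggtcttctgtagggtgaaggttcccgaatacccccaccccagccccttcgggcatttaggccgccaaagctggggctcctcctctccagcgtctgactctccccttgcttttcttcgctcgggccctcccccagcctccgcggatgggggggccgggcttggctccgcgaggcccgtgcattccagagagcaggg
Gas1: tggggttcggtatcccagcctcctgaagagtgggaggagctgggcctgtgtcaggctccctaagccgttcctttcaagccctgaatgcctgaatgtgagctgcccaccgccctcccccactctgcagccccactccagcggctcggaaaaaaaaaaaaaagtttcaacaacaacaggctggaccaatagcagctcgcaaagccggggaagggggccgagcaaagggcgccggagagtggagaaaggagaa

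The members lie on 6 chromosomes in GRCm38.p6. Gli2 spans chr1:118834061-119054405, Smo chr6:29735497-29761366, Boc chr16:44485045-44558870 and Sufu chr19:46396896-46488804. Gli3 at chr13:15463723-15730026, Gas1 at chr13:60174405-60177535 and Ptch1 at chr13:63508328-63573460 share a chromosome, and Hhip spans chr8:79965850-80058060. RefSeq annotates each as protein-coding.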

How the data were processed

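Poly(A) libraries were made from neural stem cells with a TruSeq kit. Per the study's methods and the submitters' processing notes, the authors trimmed reads with Trim Galore 0.4.4, aligned to GRCm38.p6 by HISAT2 2.0.5 and used limma 3.40.6 for analysis. The counting tool is not given in the sources used here. The deposited values are log2 CPM corrected by the authors for batch, a single table of 14922 genes. A fit of group and batch left batch coefficients of at most 7e-09, so no difference between batches was left within the groups. Absolute depth is unknown, and low values that were whole multiples of 1 step (3143 of 3143, tolerance 0.02 of a step) gave depth relative to the deepest library.

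The members and gene lists were chosen with earlier results of these data known. The 2 columns that equalled the mean of their group mates (within 1e-06) were left out. All genes were modelled in limma 3.58.1 (R 4.3.3) on group plus batch. The fit used quality weights per library, a mean-variance trend and line as the blocking factor (consensus correlation 0.0827, 16 residual and 4.86 prior degrees of freedom). The Benjamini-Hochberg adjustment covered the 14922 genes of the table, and calls used an adjusted p under 0.05. Nothing states that lines came from separate litters. P-values of the fits measure the weighted spread of libraries from these lines. At the low consensus correlation, repeat libraries of a line counted almost as separate ones. With 1 unweighted mean per line, all genes passing between strains in wild type went from 6131 to 2091. Means and SD are over lines, and fitted changes weight libraries unequally. Exon lengths came from GENCODE M21. Correlations over lines used two-sided exact permutation (Python, numpy). Members were named always, and other pathway genes where they passed, at most the 3 with the smallest p per list and comparison, besides Shh, Dhh and Cdon. Some planned genes are not reported here. The planned pairs with Gli1 and likeness to Gli1 could not be run, and likeness to Ptch1, Gli2 and Gas1 took its place. Fits were run on simulated data with independent noise and a single spread per gene. Those data held no line, batch or library quality differences, so they cannot test how the fit handles them. Correlations within batches and of Ptch1 with markers and depth, and the promoter windows shown, were chosen after values were seen. Alternatives were 17 fits without 1 line each and 15 others.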

Additional observations from a re-analysis of the deposited data

Results flagged for a closer look

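Among 44 combinations of a gene and a group of 4 or 5 lines, over 11 genes, 2 held a line set apart from the others by Dixon's test at the 95% level, where chance flags about 1 in 20. Ptch1 in B6GFP MommeD43 replicate 3 was at 6.30 log2 CPM beside 5.83 to 5.90 in the other 3 lines. Cdon in FVB MommeD43 replicate 2 was at 5.68 log2 CPM beside 6.04 to 6.05 in the other 3 lines.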

How the results depend on the processing

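The number of members passing was 0 for MommeD43 in FVB, in B6GFP and for the strain difference under every alternative run, although all genes passing in FVB rose from 11 to 981 without FVB MommeD43 replicate 2. Between strains the count of 3 in wild type was 1 with no quality weights and 1 with the mean of each line. All genes passing there went from 6131 to 1259 and 2091. In MommeD43 the member count was 0 with no quality weights, 1 with the mean of each line and 8 with all 24 columns. All genes passing there went from 5126 to 1017, 2138 and 13991 of 14922. The 24 columns include 2 with no residual of their own. Over fits without 1 line the member count in MommeD43 ranged from 3 to 5. Without B6GFP MommeD43 replicate 3 it was 5, beside 8179 of all genes. Gli2 passed in 29 of 29 alternatives in wild type and 28 of 29 in MommeD43, and Smo and Gas1 in 27 of 29 each in both. Over all named genes 2109 values were the same, 113 lost and 14 gained a call, and 158 changed sign. Low depth in batch 2 limits Shh, which was near 1 CPM.

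Wild-type and MommeD43 lines with the same replicate number were compared over genes, as deviations from group means. Their r ran from −0.484 to 0.138 in FVB and from −0.355 to 0.131 in B6GFP, so replicate numbers did not mark like lines. Some line labels share their leading number between genotypes. There r was 0.154 and 0.472 for B6GFP wild type replicates 1 and 2 with MommeD43 replicate 4. It was 0.131 for B6GFP replicate 3 of both genotypes, and 0.176 for FVB wild type replicate 1 with MommeD43 replicate 4. With such B6GFP lines as 1 block, 0 members passed for MommeD43 in either strain. All genes passing there were 10 in FVB and 2 in B6GFP. With the replicate block 0 members passed for MommeD43 in either strain, and all genes passing in FVB went from 11 to 29. A number nested in strain leaves no strain contrast, so that block was run with numbers shared across strains. The Gli1 pairs were not run, since Gli1 was not among the genes analysed. The single-batch fits of strain contrasts in batches 2 and 3 were not run, since those batches hold 1 strain. The r of Ptch1 and Gli3 in B6GFP was −0.865 without the 2 lines farthest from the median.

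The log2 changes below reversed sign, and the cause was not tested. In batch 1 alone, the values for MommeD43 in FVB were Gli2 −0.0060, Ptch1 0.020 and Smo 0.010. For MommeD43 in B6GFP they were Ptch1 0.013, Smo 0.0069, Dhh −0.11 and Smchd1 0.051. For the strain difference they were Ptch1 −0.0074. For strain in wild type they were Ptch1 0.013. For strain in MommeD43 they were Ptch1 0.0060. With no quality weights, the values for MommeD43 in B6GFP were Gli2 0.28, Smo 0.088, Hhip 0.090, Sufu 0.043, Boc 0.26 and Smchd1 0.16. For the strain difference they were Gli2 0.23, Smo 0.090, Hhip 0.10, Sufu 0.063, Boc 0.12 and Gas1 0.32. For MommeD43 in FVB they were Gli3 0.040, Hhip −0.0047, Sufu −0.020 and Shh −0.086. With all 24 columns, the values for MommeD43 in B6GFP were Gli2 0.10, Ptch1 0.012, Smo 0.037, Hhip 0.018, Sufu 0.0016, Boc 0.12 and Smchd1 0.10. For the strain difference they were Gli2 0.092, Smo 0.076 and Gas1 0.068. For strain in MommeD43 they were Ptch1 0.036. With the mean of each line, the values for MommeD43 in B6GFP were Gli2 0.36, Smo 0.13, Hhip 0.18, Sufu 0.054, Boc 0.29 and Smchd1 0.20. For the strain difference they were Gli2 0.34, Ptch1 −0.047, Smo 0.13, Hhip 0.18, Sufu 0.085, Boc 0.18 and Gas1 0.48. For MommeD43 in FVB they were Gli3 0.012, Sufu −0.031 and Shh −0.14. In batch 3 alone, the values for MommeD43 in B6GFP were Gli2 0.19, Ptch1 0.22, Sufu 0.14, Gas1 −0.13 and Smchd1 0.061. In batch 2 alone, the values for MommeD43 in FVB were Gli3 0.25, Hhip −0.21, Shh −0.15, Dhh −0.14 and Cdon 0.13. With the replicate block, the values for MommeD43 in FVB were Gli3 0.075 and Smo 0.012. For MommeD43 in B6GFP they were Smo 0.024 and Smchd1 0.051. For the strain difference they were Smo 0.012 and Gas1 0.029. With libraries centred on their medians, the values for strain in wild type were Ptch1 0.060. For strain in MommeD43 they were Ptch1 0.073. For MommeD43 in FVB they were Sufu −0.015. With the compared groups alone, the values for strain in wild type were Ptch1 0.013. For MommeD43 in FVB they were Sufu −0.00056. Without the 2 lowest-weight libraries (added after seeing the data), the values for strain in MommeD43 were Ptch1 0.0013. For MommeD43 in B6GFP they were Gas1 −0.015. With the replicate block shared across strains (added after seeing the data), the values for strain in MommeD43 were Sufu −0.0091. Over fits without 1 line each, the ranges for MommeD43 in FVB were Gli2 −0.077 to 0.065, Gli3 −0.20 to 0.074, Ptch1 −0.067 to 0.066, Smo −0.041 to 0.031, Hhip −0.014 to 0.42, Sufu −0.039 to 0.10, Gas1 −0.00046 to 0.10, Shh −0.36 to 0.59 and Cdon −0.29 to 0.067. The ranges for MommeD43 in B6GFP were Gli3 −0.030 to 0.18, Ptch1 −0.14 to 0.16, Smo −0.056 to 0.051, Hhip −0.20 to 0.037, Boc −0.17 to 0.14, Gas1 −0.027 to 0.15, Shh −0.72 to 0.44, Dhh −0.075 to 0.48 and Smchd1 −0.073 to 0.089. The ranges for the strain difference were Gli2 −0.22 to 0.0059, Gli3 −0.027 to 0.32, Ptch1 −0.10 to 0.20, Smo −0.045 to 0.063, Sufu −0.13 to 0.0056, Boc −0.29 to 0.014 and Gas1 −0.10 to 0.076. The ranges for strain in wild type were Ptch1 −0.071 to 0.055, Hhip −0.31 to 0.075 and Shh −0.52 to 1.06. The ranges for strain in MommeD43 were Ptch1 −0.12 to 0.20, Sufu −0.040 to 0.12 and Shh −0.94 to 0.50.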
